A study of Drosophila melanogaster with 2 samples.

Results

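Introns close to a transcription start site (TSS) held 219 of the 1402 peaks that chromatin immunoprecipitation sequencing (ChIP-seq) of toy-eGFP gave on the chromosome arms of Drosophila melanogaster (15.6%, Wilson 95% interval 13.8 to 17.6%). They were chosen by position alone: the summit lies inside a gene but in no exon, more than 500 bp and at most 2000 bp from the nearest TSS of any gene. They made up 219 of the 463 intronic peaks (47.3%, interval 42.8 to 51.9%). The other classes set beside them were 750 promoter peaks (summit within 500 bp of a TSS), 244 distal intronic peaks (in an intron, beyond 2000 bp) and 159 intergenic peaks, and 30 more lay in exons.

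All samples belong to a single group with no contrast between conditions: 2 biological replicates of whole embryos of 0 to 24 h from transgenic flies that express toy fused to eGFP, immunoprecipitated with an antibody against GFP. Chromatin was sonicated, with a labelled size range of 200 to 800 bp. The embryos mix all cell types, so a peak cannot be placed in any of them, and the antibody sees the tagged fusion protein. The possible control experiment that the labels name was not analysed here. Read depth is unknown; the lists hold 925 and 1098 thresholded peaks for replicates 1 and 2. Intervals cover counting error only, and p-values over peaks treat peaks as units, not as biological replicates.

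The protein toy (twin of eyeless) is one of the Pax6-type transcription factors of flies. It carries a paired domain and a homeodomain, each of which binds DNA, and it is known for starting the eye programme upstream of eyeless. Introns near the start of a gene often hold enhancers and alternative promoters, and long first introns are common in developmental genes of the fly.

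The summits themselves are shown first, because their base composition recurs in the results. The 4 strongest summits among the members, leaving aside one arm whose sequence is not shown, each with 60 bp on either side, had 69.4 to 76.9% A and T. Sequences are from the RefSeq Release 6 assembly (dm6 coordinates), read 5′ to 3′ on the plus strand, and capitals mark runs of at least 6 A or T. They lie in introns of CG11050 (chr2L:6612648-6612768), CG32772 (chrX:4910311-4910431), Trl (chr3L:14759455-14759575) and CG3726 (chrX:5918863-5918983).
CG11050: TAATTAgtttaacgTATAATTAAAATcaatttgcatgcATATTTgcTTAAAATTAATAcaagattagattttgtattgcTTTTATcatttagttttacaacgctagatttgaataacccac
CG32772: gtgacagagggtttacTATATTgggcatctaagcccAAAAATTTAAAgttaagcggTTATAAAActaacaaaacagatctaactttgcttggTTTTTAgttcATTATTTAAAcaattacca
Trl: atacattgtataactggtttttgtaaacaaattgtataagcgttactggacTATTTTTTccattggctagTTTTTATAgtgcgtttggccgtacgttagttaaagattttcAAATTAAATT
CG3726: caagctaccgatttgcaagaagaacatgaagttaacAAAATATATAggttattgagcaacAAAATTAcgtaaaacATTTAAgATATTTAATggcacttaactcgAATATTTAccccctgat

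A second set of 4 summits, with 120 bp on either side, shows a short element that flanked many summits. Capitals mark CACTGT or its reverse complement ACAGTG. In each of these windows ACAGTG lies left of the summit, at the centre, and CACTGT lies right of it, so that both copies read away from the summit. They are 4 of the 6 strongest of the 15 members that have this arrangement within 120 bp and no exon in the window, on the arms whose sequence is shown. They lie in NFAT (chrX:13640407-13640647), CG32767 (chrX:5083652-5083892), for (chr2L:3655706-3655946) and prage (chrX:1830639-1830879).
NFAT: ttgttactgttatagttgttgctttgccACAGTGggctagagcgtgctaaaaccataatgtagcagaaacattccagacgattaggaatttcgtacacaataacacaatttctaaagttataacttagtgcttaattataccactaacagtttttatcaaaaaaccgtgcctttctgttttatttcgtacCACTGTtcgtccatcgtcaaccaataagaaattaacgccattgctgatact
CG32767: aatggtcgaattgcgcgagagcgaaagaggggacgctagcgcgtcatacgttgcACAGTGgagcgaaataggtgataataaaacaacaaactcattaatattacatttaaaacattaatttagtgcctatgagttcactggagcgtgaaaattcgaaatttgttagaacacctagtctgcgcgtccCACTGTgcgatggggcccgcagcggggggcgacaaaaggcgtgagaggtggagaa
for: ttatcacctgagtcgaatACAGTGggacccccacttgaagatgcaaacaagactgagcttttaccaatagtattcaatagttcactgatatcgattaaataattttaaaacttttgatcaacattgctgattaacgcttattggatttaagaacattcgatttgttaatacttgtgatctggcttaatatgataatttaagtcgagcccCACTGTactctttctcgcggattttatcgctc
prage: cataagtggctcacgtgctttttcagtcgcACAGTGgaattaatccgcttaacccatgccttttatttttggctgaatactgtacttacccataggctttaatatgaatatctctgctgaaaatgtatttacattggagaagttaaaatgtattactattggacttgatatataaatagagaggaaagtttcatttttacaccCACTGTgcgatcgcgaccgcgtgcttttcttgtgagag

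The strongest peak of the whole list was a member. Its summit lies in the second intron of CG11050 (FBgn0031836), an intron of 140 bp, 1021 bp from the TSS. The peak itself is 336 bp wide and so reaches beyond that intron. The authors' signal value there was 775 in replicate 1, 694 in replicate 2 and 1490.1 in the series list. No other member came near it. No source used here says how the authors scaled this value, so it serves to rank peaks within a list.

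Genes of DNA-binding and chromatin proteins hosted 3 of the 5 strongest members. This grouping by role was made with the values known and carries no share over all hosts. Adf1 (FBgn0284249; 2R, 6662939 to 6663192), a transcription factor first found at the Adh promoter, had signal values of 299 and 359 in replicates 1 and 2 and 657 in the series list, 795 bp from its TSS. HmgZ (2R, 21703211 to 21703552), which encodes a high mobility group protein that bends DNA, had 301 and 324 in the replicates and 623 in the series. Its summit lies 558 bp from the TSS and also falls in an intron of HmgD. Trl (3L, 14759370 to 14759654), the gene of GAGA factor, had 316 and 303 in the replicates and 617 in the series. The remaining member of these 5, in CG32772, had 298 and 315 in the replicates and 627 in the series. In all 5 both replicates gave high values that lie close together.

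Hosts with other roles followed. The forkhead gene CHES-1-like had a series value of 427 and norpA, the phospholipase C of phototransduction, 426. The replication regulator gene chif had 406, the myosin phosphatase targeting gene MYPT-75D 397 and the transcription factor gene NFAT 350.0. Among enzymes, the phospholipid acyltransferase gene LPCAT had 306, the Src regulator gene Csk 280.0, the kinase gene Mekk1 266 and the cGMP-dependent kinase gene for 243. RNA-binding proteins are encoded by mub at 274 and Tis11 at 238, a potassium channel by KCNQ at 252 and the cytoplasmic dynein heavy chain by Dhc64C at 244. Also among the 25 strongest were CG3726 at 522, CG9663 at 479, CG9837 at 414, CG32767 at 284, Fem-1 at 272 and CG42327 at 265.

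**Figure D1:**
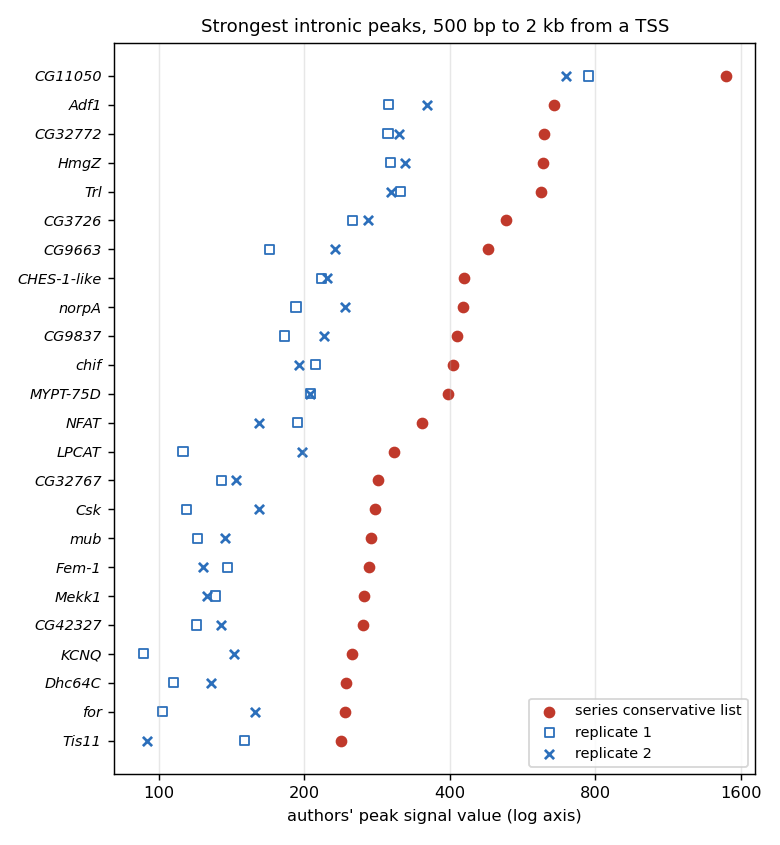
Authors' signal value (log axis) of 24 of the 25 strongest intronic peaks within 500 bp to 2 kb of a TSS, one row per peak by host gene, with the series conservative list as filled circles, replicate 1 as open squares and replicate 2 as crosses. CG11050 stands apart at 1490.1, and the series value lies above both replicates in every row.

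All 25 of these peaks passed the authors' threshold in both replicates, and 22 lie in a first intron. The replicates were not equal at each of them. LPCAT had 112 in replicate 1 and 198 in replicate 2, and Tis11 had 150.4 in replicate 1 and 94.6 in replicate 2.

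Below the strongest peaks the members fell off steeply in signal and in repetition. The median series signal of the 219 members was 110 (interquartile range 83.5 to 156). Of them, 126 (57.5%; 54.4% of all 1402 peaks) overlapped a thresholded peak of replicate 1, 136 (62.1%; 65.3% of all) one of replicate 2, and 46.1% of members (Wilson 95% interval 39.6 to 52.7%; 44.2% of all) both. Replicate 1 alone accounted for 25 members (11.4%), replicate 2 alone for 35 (16.0%), and 58 (26.5%) overlapped a thresholded peak of neither replicate. Of all 1402 peaks, 763 overlapped a thresholded peak of replicate 1, 916 one of replicate 2 and 619 both. The member counts for 1 replicate alone and for neither carry no share of their own over all peaks. They are not read as a trait of the members.

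Where both replicates had a ranked peak, at 218 members, their signal values had a Spearman correlation of 0.68. It was 0.66 at 1170 other conservative peaks. The IDR (irreproducible discovery rate) selection favours such agreement, and neither value carries a test. The log2 ratio of replicate 2 to replicate 1 had a median of -0.04 and an SD of 0.45 over members. At 6 members the replicates differed by more than 2-fold, and these were named after their values were seen. Dok, an adaptor protein gene, was the most unequal, with 98.1 in replicate 1 and 30.4 in replicate 2. Marf, the mitofusin gene, leaned the other way, with 45.0 in replicate 1 and 103 in replicate 2. The others were CG9135, larp and Ptp10D, higher in replicate 1, and CG14434, higher in replicate 2.

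**Figure D2:**
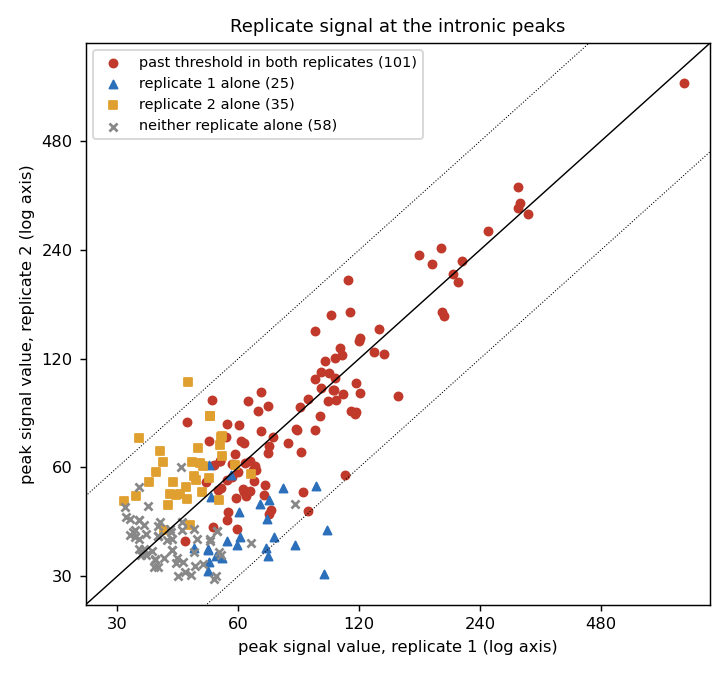
Authors' signal value in replicate 1 (x, log axis) against replicate 2 (y, log axis) at the 218 members with both values, marked by the replicates in which the peak passed the threshold; the legend counts all 219 members. The solid line marks equal values and the dotted lines a 2-fold difference, which 6 members exceed.

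Some members are not separate sites. Of the 219, 9 share bases with a stronger conservative peak whose summit lies 199 to 213 bp away (median 202 bp), and their series signal was 2.46 to 52.3 (median 18.4). Such a pair can share 1 replicate peak. In yrt, for example, members at 92.2 and 2.46 in the series list both overlap the same replicate signals, 53.1 in replicate 1 and 40.1 in replicate 2. Of all 1402 peaks, 62 (4.42%) overlap a stronger one. Without the 9 members, 210 remained, with 99 in both replicates (47.1%), and no difference between classes given here changed its call.

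Several genes held more than 1 member. The 219 members lie in 192 host genes, and 21 genes with 2 or more held 48 of them. These counts include members that share bases with a stronger peak, such as the weaker ones in yrt and Rab11. The gene shn, which encodes the zinc finger protein Schnurri of Dpp signalling, held 4, at 211, 72.3, 72.0 and 63.4. With 3 members each followed CHES-1-like (427, 202 and 89.4), CG9837 (414, 83.2 and 46.0), the kinase gene Tlk (186, 105 and 104) and C3G, a Rap exchange factor gene (113, 71.8 and 2.90). In each of these 5 genes the strongest peak passed in both replicates.

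The remaining genes had 2 members each. Trl (617 and 63.3), HmgZ (623 and 77.6) and NFAT (350.0 and 168) each had a strong and a weaker peak, as did CG9663 (479 and 206), egh (224 and 40.3) and CG42258 (207 and 68.3). The BMP receptor gene wit had 159 and 84.4, the ceramide synthase gene schlank 136 and 26.6, the vesicle traffic gene Rab11 117 and 4.14, and CrebB, the CREB gene, 107 and 90.2. In Svil (110 and 96.5), pico (103 and 82.3), CG32264 (92.0 and 63.9), yrt (92.2 and 2.46), the proton pump gene Vha16-1 (69.6 and 52.3) and hebe (63.9 and 18.4) no member exceeded 110. The members of 1 gene share their locus and are not independent sites.

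The position of the rule was over-represented among called peaks. Of the ranked peaks, the authors' long list without a threshold, 2.3% of 10431 at this position overlapped a conservative peak (called, here), against 1.10% of 116411 at all other positions and 1.19% of all 126842. The odds ratio was 2.13 (2-sided Fisher's exact p = 1.39e-22). In the lists of replicate 1 alone, 2.12% at this position were called, against 1.19% of all its ranked peaks. In those of replicate 2 alone, 1.83% were called, against 0.958% of all. The other positions pool promoters with distal and intergenic sites.

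Called peaks lay closer to the TSS within the window than ranked peaks that were not called. The median distance was 1017 bp for members and 1190 bp for the 10191 ranked peaks at this position that were not called. The bin of 500 to 750 bp held 71 members (32.4%, Wilson 95% interval 26.6 to 38.9%), against 18.0% of those not called. In the 5 bins from 750 bp outward the share of members was below that of the peaks not called, with intervals that included it in 4 of them. Most members, 140 (63.9%), lie downstream of the nearest TSS, and for 194 (88.6%) that TSS belongs to the host gene. Both shares may follow in part from the rule, and neither is given for the peaks not called. Among the strongest members, the nearest TSS of those in KCNQ, Tis11 and CHES-1-like belongs to another gene. The TSS of the host lies 4858, 6113 and 2036 bp away there. The limits of the window are not gaps in the data. The members nearest to 500 bp were Pino at 501 bp and Eip63F-1 and Pen at 503 bp, with signal values of 80.0, 145 and 78.4. Just outside lay ph-p at 492 bp, CG31612 at 491 bp and CAP at 488 bp, with 706, 295 and 86.3. At the outer limit RhoGAP18B (1991 bp, 111), Rtnl1 (1971 bp, 83.3) and Rab11 (1962 bp, 4.14) were inside, and pot (2008 bp, 68.6), IP3K2 (2013 bp, 71.4) and lncRNA:CR44320 (2014 bp, 157) were outside.

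First introns held most members. Of 219, 189 (86.3%, Wilson 95% interval 81.1 to 90.2%) lie in the first intron of a transcript of the host gene, against 6575 of 10191 peaks not called at the same position (64.5%, interval 63.6 to 65.4%; odds ratio 3.46, 2-sided Fisher's exact p = 8.80e-13). The difference was 20.1 percentage points for summits at 500 to 1000 bp and 22.6 points at 1000 to 2000 bp, each past the threshold (Fisher's exact p = 4.51e-06 and 1.19e-07). Members in later introns include Trl and MYPT-75D in intron 2, zfh1 in intron 3 and Msp300 in intron 12. The introns themselves were long, with a median of 4784 bp for members and 5944 bp for peaks not called, and ranged for members between 140 bp in CG11050 and 73902 bp.

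**Figure D3:**
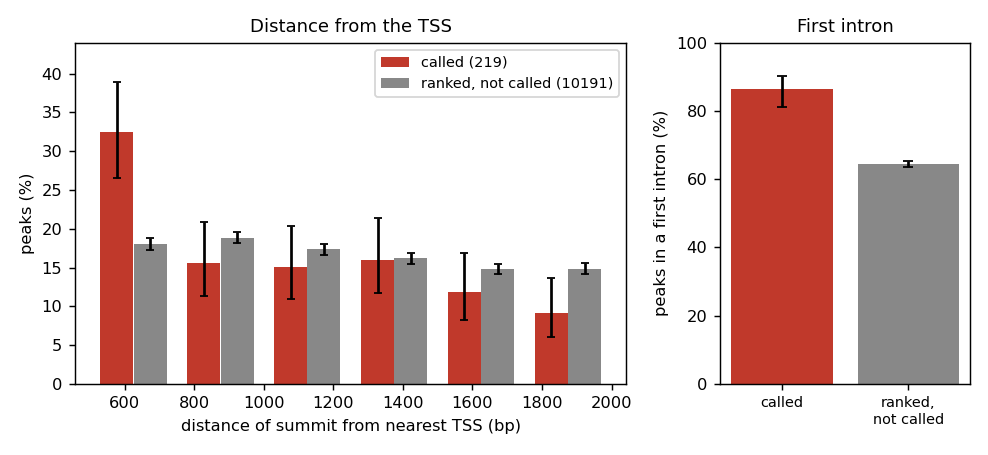
Left, share of peaks in bins of 250 bp of distance between summit and nearest TSS; right, share of peaks in a first intron; for the 219 called peaks (red) and the 10191 ranked peaks at the same position that were not called (grey), with Wilson 95% intervals. Called peaks are higher in the bin nearest the TSS (32.4% against 18.0%) and in first introns (86.3% against 64.5%).

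Members repeated more often than distal intronic peaks. Of the 219 members 46.1% passed in both replicates, against 73 of 244 distal intronic peaks (29.9%, Wilson 95% interval 24.5 to 35.9%; odds ratio 2.00, Fisher's exact p adjusted over 3 classes = 0.00112). Promoter peaks stood at 369 of 750 (49.2%) and intergenic peaks at 66 of 159 (41.5%), and neither difference passed (Fisher's exact adjusted p = 0.443 for each). The share of peaks above the median signal of all 1402, which is 50.0% by construction, was 52.5% for members. It was 34.0% for distal intronic peaks (odds ratio 2.14, Fisher's exact adjusted p = 0.000224), 56.5% for promoter peaks (adjusted p = 0.315) and 42.1% for intergenic peaks (adjusted p = 0.0726). By the signal left without replicate 1, the difference was -8.36 points from promoter peaks (Fisher's exact adjusted p = 0.0461) and 3.18 from intergenic peaks (0.601). Without replicate 2 it was 3.67 points (0.355) and 12.6 points (0.0249). Median signal values were 110 for members, 116 for promoter, 92.6 for distal intronic and 97.2 for intergenic peaks.

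Both differences from distal intronic peaks depended on the choice of peaks. At an IDR of at most 0.001, which leaves 98 members, the share in both replicates was 84.7% for members and 93.3% for distal intronic peaks, a difference of -8.64 percentage points (Fisher's exact adjusted p = 0.203), and the share above the median by 3.98 points (adjusted p = 0.743). The IDR itself measures agreement between replicates, so this limit selects on nearly the same property as the first share, which is then close to its upper end in both classes. With the 5′ ends of gene records as TSSs the share in both replicates differed by 9.23 points (Fisher's exact adjusted p = 0.102). For members at 1000 to 2000 bp alone the differences were 12.2 points (Fisher's exact adjusted p = 0.0918) and 12.5 points (adjusted p = 0.0797).

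**Figure D4:**
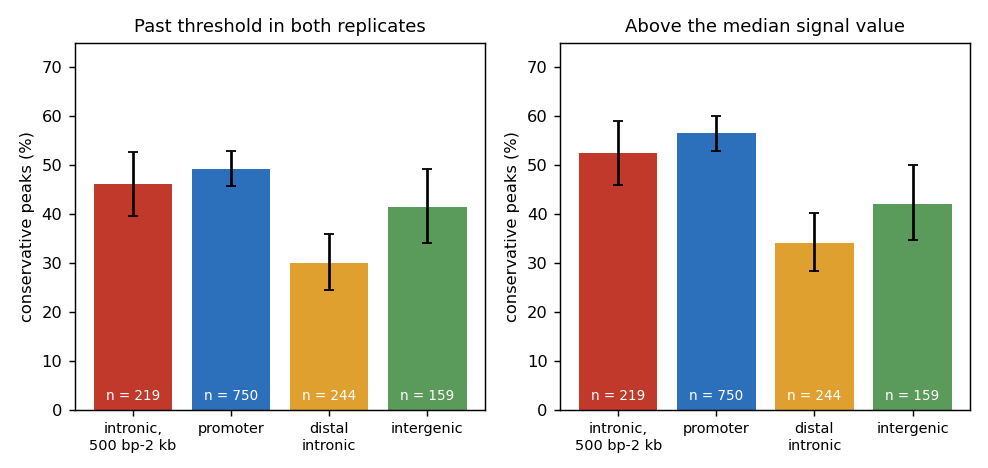
Share of conservative peaks past the threshold in both replicates (left) and above the median signal value of all 1402 peaks (right), by position class, with Wilson 95% intervals and the number of peaks in each bar. The intronic peaks at 500 bp to 2 kb (46.1% and 52.5%) stand near promoter peaks and above distal intronic peaks (29.9% and 34.0%).

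The X chromosome carried more members than its share of ranked peaks. It held 61 of 219 (27.9%), against 1953 of 10191 peaks not called at the same position (19.2%; odds ratio 1.63, Fisher's exact p adjusted over 7 arms = 0.0164). The call was lost in 5 of 7 alternatives, with odds ratios of 1.54 to 1.68 in those, so the excess is close to the threshold. Arms 3R (48 members), 3L (39), 2R (36) and 2L (35) had odds ratios of 0.815 to 0.903, none past adjustment (Fisher's exact adjusted p = 0.827 for each). Chromosome 4, which carries toy itself, and Y held 0 members, against 8 and 3 ranked peaks not called at this position. Of the 25 strongest members 9 are on X, and 9 of the 21 genes with 2 or more members are.

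Summits of members were rich in A and T. In windows of 100 bp on each side of the summit the median G and C content was 35.6% at summits and 40.5% in windows moved by 1000 bp, for 206 members whose flank held no conservative peak. It was lower at the summit in 134 pairs and higher in 70 (exact 2-sided sign test p = 8.78e-06). The low G and C lay close to the summit: in the central 51 bp it had a median of 31.4% for members and 43.1% for ranked peaks not called. In windows of 200 bp on each side the median difference was -1.25 percentage points and did not pass (exact sign test p = 0.160). The central median was also 31.4% for promoter and for distal intronic peaks, and it was 33.3% for intergenic peaks.

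Of the 16 motifs searched on both strands, 2 were more frequent at summits (12.5%) and 0 less frequent (0.0%, and 0 at an unadjusted exact McNemar p under 0.05). The paired-class homeodomain dimer, an inverted pair of homeodomain cores to which homeodomains of the Pax type are known to bind, was searched with up to 1 mismatch. It lay in 35.4% of summit windows and 19.4% of flank windows (exact McNemar p adjusted over 16 motifs = 0.00508). It was in 28.3% of distal intronic, 34.1% of promoter and 17.6% of not called windows. The TATA motif TATAAA lay in 35.9% and 21.8% (exact McNemar adjusted p = 0.0135), and in 29.1% of distal intronic, 38.7% of promoter and 18.3% of not called windows. Both are made mainly of A and T, whose share also rises at the summit; the part of base composition in these differences was not tested. Both calls were lost among members at 500 to 1000 bp or 1000 to 2000 bp alone, with differences of 16.5 and 15.6 points for the dimer (16.0 over all pairs) and 10.3 and 17.4 points for TATAAA (14.1 over all). They were also lost in windows of 50 and of 200 bp on each side, with 4.35 and 13.2 points for the dimer and 10.6 and 9.76 for TATAAA. With the 5′ ends of gene records as TSSs TATAAA lost its call (11.3 points, exact McNemar adjusted p = 0.136) and the dimer kept it.

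Sites for the paired domain and the homeodomain core did not differ past the threshold between summit and flank. The paired-domain consensus with up to 2 mismatches was in 9.22% of summit windows and 9.71% of flank windows (exact McNemar adjusted p = 1). It was in 11.4% of not called windows. Its first part, TTCACGC, was in 0.971% and 1.46% (exact adjusted p = 1). The homeodomain core TAATTA was in 13.6% and 12.6% (exact adjusted p = 1). With 206 pairs, differences of a few points could not be detected.

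Other motifs did not pass at summits. The GAGA factor site GAGAG was in 22.8% of summits and 23.8% of flanks, the Pho core GCCAT in 24.8% and 26.2%, the E-box CAGCTG in 9.71% and 8.25%, and the CACA repeat CACACACA in 4.37% and 5.83%. The DRE TATCGATA was in 0% and 0.971%, and CGATA, which it contains, in 22.3% and 26.2%. The Motif 1 core GGTCACAC was in 0.485% and 0.971%, the Zelda site CAGGTAG in 0.485% of both, the AP-1 site TGACTCA in 3.40% and 0.485%, and the Grainyhead site AACCGG in 1.94% and 5.83%. Against distal intronic summits 0 of 16 motifs passed (0.0%; Fisher's exact test, 1 at an unadjusted p under 0.05). Against promoter summits 1 of 16 did (6.25%). The E-box CATATG was in 13.7% of 219 members, 4.93% of 750 promoter summits and 6.40% of summits not called (odds ratio 3.06 against promoters, Fisher's exact adjusted p = 0.000456). It was in 14.1% of the 206 paired summits and 9.22% of their flanks (exact McNemar adjusted p = 0.589); with flanks on the other side the difference was 8.65 points and passed (exact McNemar adjusted p = 0.0343). The DRE, an element of core promoters, was in 0.457% of members and 3.87% of promoter summits (Fisher's exact adjusted p = 0.0539).

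Among all 2080 6-mers, 7 were more frequent at summits (0.337%) and 1 less frequent (0.0481%), at an exact McNemar p adjusted over all of them below 0.05; 8.7% had an unadjusted p below 0.05. TTTAAA was in 34.0% of summit windows and 13.6% of flank windows (exact adjusted p = 0.00136), ATATTA in 36.4% and 16.5% (0.0112) and GTTAAA in 23.8% and 8.74% (0.0196). At promoter summits they were in 35.3%, 35.1% and 18.3%, and at distal intronic summits in 27.9%, 32.4% and 19.3%. The other 4 share bases with CACTGT: read on its strand, ACTGTA and CTGTAC continue it with A, and CTGTGT, the reverse complement of ACACAG, with G. CTGTAC was in 13.6% and 2.43% (exact adjusted p = 0.0112), ACTGTA in 25.2% and 9.22% (0.0141), ACAGTG, the reverse complement of CACTGT, in 25.7% and 10.7% (0.0263) and ACACAG in 20.4% and 6.80% (0.0332). At promoter summits these 4 were in 6.40%, 13.2%, 18.1% and 11.1%, and at distal intronic summits in 9.84%, 17.2%, 24.2% and 13.1%; the differences between classes were not tested for 6-mers. CGCCAA was in 2.91% and 13.6% (exact adjusted p = 0.0206). Next in order were TAAATA and TTATAA (exact adjusted p = 0.0559 each). With flanks on the other side 23 6-mers passed, and of the 8 given here 5 did. CTGTAC (exact adjusted p = 0.0635), GTTAAA (0.377) and CGCCAA (0.487) lost their calls there, with CGCCAA in 3.85% of summits and 9.13% of flanks. Among members found without replicate 1, 1 6-mer passed, and without replicate 2, 0. All 8 kept their direction in these 3 settings.

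The element CACTGT lay beside the summit rather than on it, and its copies pointed away from the summit. This layout was looked for after the 6-mers had been seen, and the strand it is read on was set by the members, so it is described with no test. Within 200 bp of the 219 summits there were 124 copies, of which 97 (78.2%, Wilson 95% interval 70.2 to 84.6%) read away from the summit and 27 toward it. Their median distance from the summit was 86.5 bp, with 5 within 25 bp and 93 at more than 50 and at most 150 bp. At the bin of 75 to 100 bp members had 33 outward copies (15.1 per 100 peaks) and 4 inward copies (1.83 per 100). Ranked peaks not called at the same position had 131 and 122 there, or 1.29 and 1.20 per 100 peaks. Over the whole window 51.1% of the 1976 copies at peaks not called read outward (interval 48.9 to 53.3%).

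At 85 members (38.8%) at least 1 copy was present. That share was 38.9% at distal intronic, 31.6% at promoter, 29.6% at intergenic and 17.0% at not called peaks. At 25 members (11.4%) an outward copy stood on both sides, against 57 of 10191 peaks not called (0.559%). The windows of NFAT, CG32767, for and prage printed above are of this kind. Distal intronic peaks had 71.9% of 139 copies outward and a copy on both sides at 11.1% of peaks, promoter peaks 68.8% of 327 and 6.67%, and intergenic peaks 74.2% of 62 and 4.40%. So the layout was also present in the other called classes. Of the 97 outward copies at members, 58 (59.8%) were preceded by C, 80 (82.5%) were followed by A or G and 51 (52.6%) had C as the base after that. The deposited lists name no protein for this element.

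**Figure D5:**
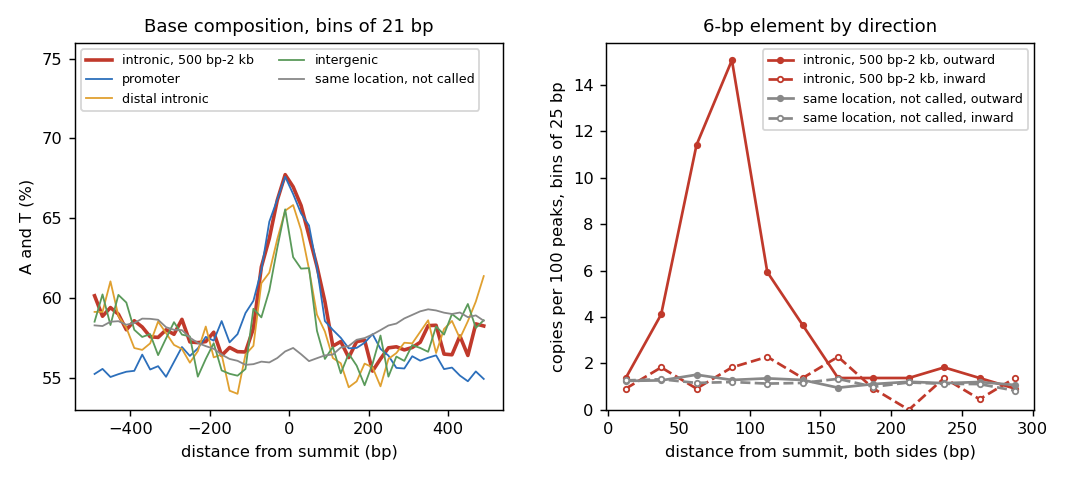
Left, mean share of A and T in bins of 21 bp by distance from the summit, for each class of peaks; right, copies of the 6-bp element per 100 peaks in bins of 25 bp by distance from the summit, both sides joined, reading outward (solid) or inward (dashed), for the 219 intronic peaks and the 10191 ranked peaks not called at the same position. A and T peak at the summit in every called class, and outward copies peak at 15.1 per 100 intronic peaks between 75 and 100 bp.

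Host genes were counted in lists chosen with earlier results of these data known, as a description with no test. Of the 3299 genes with a ranked peak at this position, 192 hosted a member (5.82%). Chromatin and general DNA-binding factors had 6 hosts of 22: Adf1, HmgZ, Trl, ph-p (Polycomb group) at 102, the ecdysone receptor gene EcR at 89.2 and the chromatin remodeller gene kis at 84.0. Cytoskeleton and muscle genes had 6 of 23, among them the cofilin gene tsr at 220.0, Moe at 200.7 (the moesin gene), Msp300 at 200.6 and the formin gene dia at 121. RNA-binding and translation genes had 5 of 20, led by the translational repressor gene brat at 210, pum at 127, elav at 117 and ps at 108. Signalling genes had 7 of 33, led by shn at 211, the adaptor gene drk at 137, Stat92E at 119 and the FGF gene ths at 118.

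Metabolism and transport genes had 3 hosts of 14, the lipase gene bmm at 124, SREBP at 96.4 and, between them, the lipid droplet gene Lsd-2. Ion channels and excitability had 3 of 28, norpA, KCNQ and the potassium channel gene Irk1 at 92.7. Axon guidance, adhesion and synapse genes had 2 of 45, the phosphatase gene Ptp10D at 108 and the netrin receptor gene fra at 83.0. Transcription factors of patterning and neural fate had 1 of 46, zfh1 at 164, with 71.2 in replicate 1 and 88.8 in replicate 2. Retinal determination and Pax genes, the known circuit of toy, had 0 of 11. Of the cell type markers with a ranked peak at this position, the hosts were elav of 4 neuron genes, pnt (94.1) of 2 glia genes, ush (65.7) of 5 endoderm, fat body and hemocyte genes, shn of 4 epidermis and trachea genes, and 0 of 3 muscle genes. These counts concern this position alone. Any conservative peak was present for 6 of 6 listed muscle, 4 of 6 epidermis and trachea, 2 of 6 neuron and 2 of 5 glia markers. The same held for 1 of 6 endoderm, fat body and hemocyte markers and 2 of 20 retinal determination and Pax genes.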

How the data were processed

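The series deposits 8 peak lists on dm6, a thresholded and a ranked list for each of 2 replicates and 4 lists made from both. Per the labels, an irreproducible discovery rate (IDR) procedure made the lists; no source used here names the aligner or peak caller. A peak's signal value is the authors', of unstated scaling. The ranked lists hold the deposited −log10 of the global IDR, and 0.01 was the limit in the thresholded lists. The conservative list was the main set, and 16 further columns of the ranked lists could not be assigned to a sample and were not used.

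Summits were placed on genes of Ensembl release 115 (BDGP6.54, the dm6 assembly), with the 5′ end of every transcript as a TSS and transposable elements left out. Arm lengths matched the RefSeq sequence. Replicate signal is the highest value of an overlapping peak in that replicate's own ranked list. Tests were 2-sided Fisher's exact, exact McNemar and exact sign tests with Benjamini-Hochberg adjustment, and windows reached 100 bp to each side of the summit, with flanks moved 1000 bp toward higher coordinates. Flanks that overlapped a conservative peak were dropped, but flanks in exons or near a TSS were not. The routines were tested on simulated windows, where 3 of 3 implanted 6-mers were recovered. Python 3.11.15, pandas 2.3.3, numpy 2.4.6, scipy 1.17.1 and matplotlib 3.10.9 were used.

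Members and lists were chosen with earlier results of these data known. Named genes were the hosts of the 25 strongest members (1 is not reported here), every host of 2 or more, up to 4 hosts per list with the strongest members, and the 3 members nearest to each limit; others are said to be named after their values were seen. Alternatives changed the TSS definition, list, IDR, distance window, overlap, windows, flanks and replicates.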

Additional observations from a re-analysis of the deposited data

Results flagged for a closer look

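Peaks at the same intronic position also appear outside the conservative list. Of the 160 thresholded peaks of replicate 1 there, 29 overlap no conservative peak, with a median signal of 61.0 and the strongest at CG32425 (148), hts (120) and InR (103). Of the 149 of replicate 2, 14 overlap none, with a median of 46.6 and the strongest at rib (60.9), Tab2 (58.5) and Mrtf (55.6). Of the 291 in the series' pooled list, 79 overlap none, with a median of 68.9 and the strongest at hts (209), InR (182) and Roc2 (178). These genes were named after their values were seen, a control was not analysed here, and the cause was not tested.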

How the results depend on the processing

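The higher call rate at this position kept its direction and its call under each alternative run for it, with odds ratios of 1.68 to 2.63. So did the first intron share, at 15.7 to 26.2 percentage points. Leaving out conservative peaks that overlap a stronger one, chosen after seeing the data, changed no class, arm, motif or first intron call. The cause of the changes below was not tested. Differences are members minus the class named, in percentage points.

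With the 5′ ends of gene records as TSSs, the difference from promoter peaks reversed to 0.243 in the share in both replicates and 0.798 above the median. That from distal intronic peaks in both replicates was 9.23 and lost its call, and that from intergenic peaks above the median, 15.0, gained one; 1 motif passed. With TSSs of protein-coding genes alone 5 6-mers passed. At 500 to 1000 bp there were 105 members, with 1.28 and 2.51 against promoter peaks, both reversed, and 16.9 above the median against intergenic peaks, now called. At 1000 to 2000 bp there were 114 members, and the differences from distal intronic peaks, 12.2 and 12.5, lost their calls. In each of these 2 windows, which hold fewer members, 0 motifs and 0 6-mers passed, at differences of 16.5 and 15.6 for the homeodomain dimer and 10.3 and 17.4 for TATAAA. At an IDR of at most 0.001 there were 98 members, and the share in both replicates reversed against distal intronic (-8.64) and intergenic peaks (-8.03). The share above the median against distal intronic peaks was 3.98 and lost its call, and 0 6-mers passed. The X odds ratio lost its call at 1.56 (gene records), 1.54 (protein-coding), 1.68 and 1.61 (the 2 distance windows) and 1.68 (IDR).

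Windows of 50 bp on each side passed 0 motifs and 2 6-mers, and windows of 200 bp 0 motifs and 5 6-mers, with a G and C difference of -1.25 that lost its call. With the other flank 3 motifs passed, CATATG among them (8.65, exact McNemar adjusted p = 0.0343), and 23 6-mers, 5 of the 8 in the report among them. Without 1 replicate or the other, the difference above the median was -8.36 and 3.67 against promoter peaks, of which -8.36 was called, and 3.18 to 12.6 against intergenic peaks, of which 12.6 was called. The count of 6-mers was 0 to 1 and that of members 149 to 160.

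Among single motifs, 30 values reversed, none of them called. They were GAGAG at 2.06 (500 to 1000 bp), 4.40 (pooled list), 1.04 (IDR), 5 (without replicate 2, and -2.34 without replicate 1) and 11.7 (200 bp), and CAGCTG at -2.06, -1.83, -2.08, -1.67, -3.12 (without replicate 1), -3.38 (50 bp) and -3.37 (other flank). The paired-domain consensus was at 0.917 (1000 to 2000 bp), 1.04 (IDR), 1.56 (without replicate 1) and 0.966 (50 bp), and TTCACGC at 0.538, 0.366, 0.483 and 0.481. Others were Motif 1 at 1.03, 0.483 and 0.976, Pho at 4.12, 0.781 and 0.833, TAATTA at -0.976 and -2.40, CACA at 1.46 and AP-1 at -0.483. The 6-mer ACAGTG, past adjustment in the report, was less frequent at summits than in flanks in windows of 50 bp (6.76% and 7.25%), and it lost its call without the overlapping weaker peaks (exact McNemar adjusted p = 0.0605).

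No paired analysis was possible because both replicates form 1 group. Depth is unknown, so a peak missing from a replicate's list is not shown to be unbound there. With 2 replicates of mixed embryos, neither the spread between collections nor the cell type of a peak can be given.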
